A study of Mus musculus with 45 samples.

Results

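Deletion of Apoe from cells of the myeloid lineage was examined in the hippocampus of 12-month-old mice without amyloid transgenes. The 10 samples were chosen by their titles, out of 45 in the series. All 10 came from C57BL/6 mice homozygous for a floxed Apoe gene, Apoe(fl/fl), and none carried 5xFAD, a transgenic model of amyloid pathology. The 3 control samples carried no Cre, and the 7 others also carried Csf1r-cre, which the series design describes as hemizygous and as removing the Apoe that microglia express. The Csf1r promoter drives Cre in microglia and in other myeloid cells, and floxed controls without Cre do not show what the Cre transgene does by itself. The labels do not say that each sample was a separate animal, so p-values measure only the spread between samples. In the limma tests that spread was estimated from all 45 samples of the series, not from these 10 alone. The remaining 35 samples belong to 6 groups, of which 3 were 4-month or 5xFAD counterparts of the Csf1r-Cre group and 3 were their controls without Cre. Brains had been divided into cortex, hippocampus and a piece with thalamus and striatum before RNA extraction, so each library is bulk RNA in which fewer cells of a type and less RNA per cell cannot be told apart.

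Apolipoprotein E carries cholesterol and other lipids between cells of the brain. Astrocytes make most of it in the healthy brain, and microglia make more of it when they take up the state seen around amyloid plaques. Receptors of the LDL receptor family and Trem2, a lipid receptor of microglia, bind it.

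The values are TPM, a transcript abundance corrected for gene length and library total. Tests were run on log2(TPM + 0.5), a scale that understates the change of low genes, with limma over the 18659 genes that reached 0.5 TPM in at least 3 of the 45 samples. A gene passed when its p, adjusted by the Benjamini-Hochberg method over all of these genes, was below 0.05. The 10 libraries held an estimated 14290750 to 20928397 reads in genes. Csf1r-Cre replicate 2 stood apart, with a median correlation of 0.886 with the other libraries and 3000 TPM of hemoglobin transcripts, and control replicate 2 came next at 0.939, while the other 8 lay between 0.965 and 0.973. The median-of-ratios size factor of Csf1r-Cre replicate 2 was 0.307, against 0.938 to 1.26 in the others of these groups. In that library 10590 genes reached 1 TPM, against 13363 to 14198 in the others. Low TPM of single genes there is to be read against this. Sex, read from Xist and Y-linked transcripts, was male in 1 of 3 controls and in 3 of 7 Csf1r-Cre samples. Striatal neuron markers summed to 6578 and 8305 TPM in control replicates 1 and 2 and to 3607 to 4133 TPM in Csf1r-Cre replicates 1, 4 and 7, but only to 217 to 570 TPM in the other 5 libraries. The part of these differences in the results below was not tested except where values are given without a library, or with a term for sex or for tissue markers.

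Apoe itself was as abundant with Csf1r-Cre as without it, within the spread of the samples. It stood at 3456, 2898 and 2729 TPM in the controls and at 3456, 1292, 4141, 3651, 3094, 2857 and 3728 TPM in the Csf1r-Cre samples. Every Csf1r-Cre library but replicate 2 lay above the lowest control, and the groups overlapped. The means were 3028 ± 380 TPM (SD, n = 3) and 3174 ± 931 TPM (SD, n = 7), and the log2 difference of -0.0022 had a two-sided exact permutation p of 1, where 0.00833 was the smallest possible. Its 95% interval in the limma fit ran from -0.50 to 0.49 on the log2 scale. TPM of the whole gene in bulk tissue cannot show how much of the microglial share was deleted.

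Few genes passed the threshold. Of 18659 genes, 13 passed, or 0.0697%, of which 9 rose, 0.0482%, and 4 fell, 0.0214%. An unadjusted p below 0.05 was found for 1887 genes, 10.1% of those tested, the 13 included. For 215 genes, 1.15%, the 3 controls and the 7 Csf1r-Cre samples did not overlap. The median log2 fold change of all genes was -0.14, and 37.9% of genes lay above 0. After rescaling by median-of-ratios size factors that median was 0.042 and 17 genes passed, 11 of them shared. Without Csf1r-Cre replicate 2 and control replicate 2, the 2 libraries that stand apart, the median of all genes was 0.064. Fold changes and counts of list members above 0 below are to be set against these shifts of all genes.

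**Figure D1:**
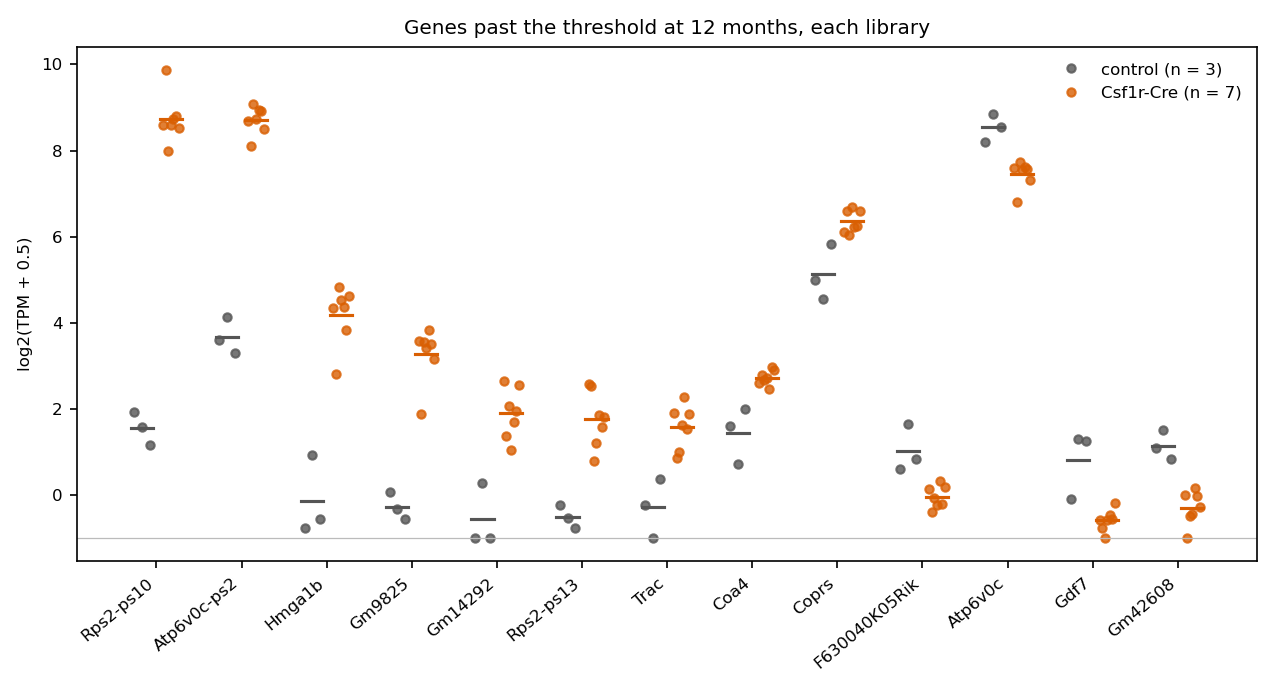
Levels of the 13 genes that passed, on log2(TPM + 0.5), in the 3 control libraries (grey) and the 7 Csf1r-Cre libraries (orange), with group means as bars and 0 TPM as the thin line. Processed pseudogenes such as Rps2-ps10 and Atp6v0c-ps2 lie far above their controls, while Coa4 and Coprs differ by little more than 1 log2 unit.

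Of the 13 genes, 6 are near-identical copies of a protein-coding gene on chromosome 17. They are Atp6v0c-ps2, Rps2-ps10, Rps2-ps13, Gm14292, Gm9825 and Hmga1b, and their sources are Atp6v0c, Rps2, Wtap, Rnps1 and Hmga1. Copies were called near-identical at 95% or more over at least 90% of the transcript in a blastn search of GENCODE transcripts. Only the 13 called genes were searched, so the share of such copies among all 18659 genes is not known. Atp6v0c encodes the proteolipid subunit of the vacuolar proton pump, Rps2 a protein of the small ribosomal subunit, Wtap a subunit of the RNA m6A methyltransferase complex, Rnps1 an RNA-binding protein of splicing and the exon junction complex, and Hmga1 an architectural chromatin protein. Reads of a copy and its source may be split between them in counting, so the values of both are uncertain.

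How little separates them is seen in 80-base stretches of 4 of the copies beside their sources, shown 5′ to 3′ with differing bases in capitals. Atp6v0c-ps2 differs from Atp6v0c at 1 of 465 aligned bases, Gm14292 from Wtap at 3 of 456, Gm9825 from Rnps1 at 5 of 843, and Rps2-ps13 from Rps2 at 7 of 882. All are GENCODE transcript sequences of the mm10 assembly.
Atp6v0c-ps2: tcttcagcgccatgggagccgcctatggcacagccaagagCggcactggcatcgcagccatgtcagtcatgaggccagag
Atp6v0c: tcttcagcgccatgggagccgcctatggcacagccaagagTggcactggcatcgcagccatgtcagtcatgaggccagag
Gm14292: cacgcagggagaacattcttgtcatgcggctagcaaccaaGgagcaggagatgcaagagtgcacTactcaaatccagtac
Wtap: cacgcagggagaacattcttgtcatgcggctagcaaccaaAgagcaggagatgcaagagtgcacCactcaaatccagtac
Gm9825: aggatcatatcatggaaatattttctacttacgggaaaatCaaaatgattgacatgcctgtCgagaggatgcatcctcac
Rnps1: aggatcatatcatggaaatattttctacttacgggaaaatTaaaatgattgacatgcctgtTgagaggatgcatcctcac
Rps2-ps13: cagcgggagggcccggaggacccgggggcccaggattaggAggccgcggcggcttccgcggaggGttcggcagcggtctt
Rps2: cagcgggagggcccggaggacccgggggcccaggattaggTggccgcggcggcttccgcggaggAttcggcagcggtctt

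Atp6v0c-ps2 (chr6:37806086-37806550, mm10, plus strand) was at 11.6, 17.1 and 9.24 TPM in the controls and between 275 and 544 TPM in the Csf1r-Cre samples, with a median of 424 TPM. No library of either group came near the other group. The log2 fold change was 5.04 ± 0.28 (SE, adjusted p = 1.23e-16), the smallest p of all genes. Its source Atp6v0c (chr17:24163866-24169702, minus strand) went the other way, at 295, 463 and 376 TPM in the controls and at 192, 111, 212, 188, 197, 190 and 158 TPM with Csf1r-Cre. Every Csf1r-Cre sample lay below every control, and the log2 fold change was -1.08 ± 0.16 (SE, adjusted p = 0.00016). In estimated reads, Atp6v0c held 3883, 5794 and 5074 in the controls and 1906 to 3239 with Csf1r-Cre. Atp6v0c-ps2 held 70, 98 and 57 in the controls and 2161 to 3701 with Csf1r-Cre. Whether reads of the source were counted for the copy was not tested. With median-of-ratios scaling Atp6v0c lay at -0.81 and did not pass (adjusted p = 0.0955). In a limma fit of only the 10 samples it did not pass either (adjusted p = 0.856).

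Rps2-ps10 lies at chr18:61259008-61259972, on the chromosome that also holds Csf1r at chr18:61105572-61132149. Whether this position bears on its level was not tested. Rps2-ps10 was at 3.27, 2.47 and 1.72 TPM in the controls and between 253 and 931 TPM with Csf1r-Cre. This gave a log2 difference of 7.19 ± 0.77 (SE) and an adjusted p of 8.82e-08. The highest value, 931 TPM, came from Csf1r-Cre replicate 2, where Rps2 too was highest at 2582 TPM. Rps2 itself overlapped between the groups, with 1530 ± 395 TPM (SD, n = 3) in controls and 1339 ± 572 TPM (SD, n = 7) with Csf1r-Cre (adjusted p = 0.634). Csf1r, the receptor whose promoter drives the Cre, was at 32.1, 35.4 and 21.1 TPM in the controls and at 31.7, 3.96, 34.4, 24.5, 19.7, 19.3 and 20.3 TPM with Csf1r-Cre (adjusted p = 0.514).

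The 4 other copies did not exceed 1.40 TPM in any control and lay above every control in every Csf1r-Cre library. Hmga1b stood at 0.0885 to 1.40 TPM in controls and 6.51 to 28.0 TPM with Csf1r-Cre, higher by 4.32 ± 0.69 (SE) on the log2 scale with an adjusted p of 0.000474. Gm9825 stood at 0.179 to 0.550 TPM and 3.16 to 13.8 TPM, higher by 3.55 ± 0.48 (SE) on the log2 scale with an adjusted p of 2.63e-05. Gm14292 was listed at 0 in 2 controls and at 0.713 TPM in the other, against 1.56 to 5.78 TPM (log2 fold change 2.47, adjusted p = 2.63e-05). Rps2-ps13 stood at 0.0854 to 0.350 TPM against 1.23 to 5.45 TPM (log2 fold change 2.28, adjusted p = 0.000213). In a limma fit of only the 10 samples, neither Gm14292 nor Rps2-ps13 passed (adjusted p = 0.51 for each). Of their sources, Rnps1 was at 49.7, 53.8 and 59.3 TPM in controls and had a median of 38.3 TPM with Csf1r-Cre (log2 fold change -0.60, adjusted p = 0.329), while Wtap and Hmga1 had log2 differences of -0.30 and -0.095 with adjusted p of 0.547 and 0.892. None of these 3 sources passed, and each overlapped between the groups.

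These 6 copies and Atp6v0c were also called, in the same direction, when Csf1r-Cre was compared with its own controls at 4 months, at 4 months with 5xFAD and at 12 months with 5xFAD. Those 3 comparisons called 9, 11 and 11 genes, or 0.0482%, 0.059% and 0.059%, and their group means rest on none of the 10 libraries described here. Their tests do share with these 10 libraries the estimate of the spread, which came from all 45 samples. The strain entry of the 12-month 5xFAD controls names Csf1r-cre while their titles do not, and the titles were followed. The log2 fold change of Atp6v0c-ps2 was 5.00 at 4 months, 4.78 at 4 months with 5xFAD and 4.56 at 12 months with 5xFAD, and that of Atp6v0c was -1.01, -0.97 and -1.02. At 4 months, however, Csf1r-Cre replicate 6 was at control level for 4 of the copies, with Rps2-ps10 at 1.757 TPM, Hmga1b at 0.442 TPM, Gm9825 at 0.274 TPM and Rps2-ps13 at 0.262 TPM. In the same library Atp6v0c-ps2 was at 445 TPM, Gm14292 at 4.06 TPM and Atp6v0c at 182 TPM, as in the other 4-month Csf1r-Cre samples. Replicate 6 of the 4-month controls had Hmga1b at 15.0 TPM, where the 7 other controls were at most at 0.630 TPM. Of the 7 genes, Atp6v0c-ps2, Gm14292 and Atp6v0c did not overlap between the groups in any of the 3 comparisons.

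The other 6 genes that passed were Coa4, Coprs and Trac, which rose, and Gdf7, Gm42608 and F630040K05Rik, which fell. The blastn search found no near-identical coding gene for any of them. Coa4, needed for the assembly of cytochrome c oxidase in mitochondria, was at 2.54, 1.13 and 3.46 TPM in controls and at 5.50, 6.41, 5.81, 6.01, 4.99, 7.31 and 6.90 TPM with Csf1r-Cre. The groups did not overlap, and the log2 fold change was 1.29 ± 0.23 (SE, adjusted p = 0.00269). Coprs, a histone-binding partner of the arginine methyltransferase PRMT5, was at 31.4, 22.8 and 56.5 TPM in controls and at 65.2 to 102 TPM with Csf1r-Cre, higher by 1.23 ± 0.26 (SE) on the log2 scale with an adjusted p of 0.0318. Here too no Csf1r-Cre sample fell below a control, but Coprs did not pass with median-of-ratios scaling (adjusted p = 0.127).

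Trac encodes the constant chain of the T cell receptor alpha subunit. It was at 0.344, 0 and 0.783 TPM in controls, from an estimated 3, 0 and 7 reads. With Csf1r-Cre it was at 3.22, 1.32, 1.49, 2.57, 4.32, 2.36 and 3.17 TPM, from an estimated 12 to 47 reads. The log2 fold change was 1.87 ± 0.40 (SE, adjusted p = 0.0473). With a term for sex in the limma model, Trac did not pass (adjusted p = 0.0556). Trac was the single member that passed among 9 T and NK cell markers tested, and 4 of the 9 lay below 0. Cd4 followed the striatal markers, at 35.8, 69.6 and 0.287 TPM in controls and at 20.6 to 28.8 TPM in Csf1r-Cre replicates 1, 4 and 7 against at most 1.89 TPM in the other 4. Trbc2, the beta constant chain, ran from 0.545 to 6.22 TPM in controls and from 0 to 12.5 TPM with Csf1r-Cre, and Lck, a kinase of T cell receptor signalling, from 0.712 to 1.29 TPM and from 0.678 to 2.35 TPM. The defining chains of the CD3 complex were near 0, with Cd3d at no more than 0.308 TPM in controls and 1.06 TPM with Csf1r-Cre, and Cd3e, Cd3g and Cd8a too low to be tested.

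Gdf7, a secreted ligand of the bone morphogenetic protein family, was at 0.438, 1.96 and 1.87 TPM in controls and no higher than 0.368 TPM in any Csf1r-Cre sample. These levels rest on an estimated 8, 34 and 35 reads in controls and on 0 to 9 reads in the Csf1r-Cre libraries. The log2 fold change was -1.42 ± 0.26 (SE, adjusted p = 0.00388). Gm42608, an unspliced model without assigned function, was at 1.27 to 2.34 TPM in controls and at 0 to 0.614 TPM with Csf1r-Cre (log2 fold change -1.44, adjusted p = 0.00498). F630040K05Rik, a long noncoding RNA at chr17:45734506-45788594, was at 1.01 to 2.63 TPM and at 0.257 to 0.748 TPM (log2 fold change -1.07, adjusted p = 0.00825). None of these 3 genes overlapped between the groups.

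For most of these 6 genes the 12-month controls lay apart from the rest of the series. Coa4 ranged from 3.41 to 8.17 TPM in the 35 libraries of the other groups, and 34 of the 35 lay above the highest 12-month control. Trac likewise lay above the highest 12-month control in 34 of 35 libraries. Gm42608 and F630040K05Rik lay below the lowest 12-month control in 35 of 35 libraries, and Gdf7 did so in 29. Coprs was less clear, with 22 of 35 libraries above the highest control. The 12-month Csf1r-Cre means of Coa4, 6.13 ± 0.80 TPM (SD, n = 7), and of Gdf7, 0.168 ± 0.114 TPM (SD, n = 7), stood beside 4-month Csf1r-Cre means of 5.09 ± 0.73 TPM (SD, n = 6) and 0.174 ± 0.119 TPM (SD, n = 6).

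**Figure D2:**
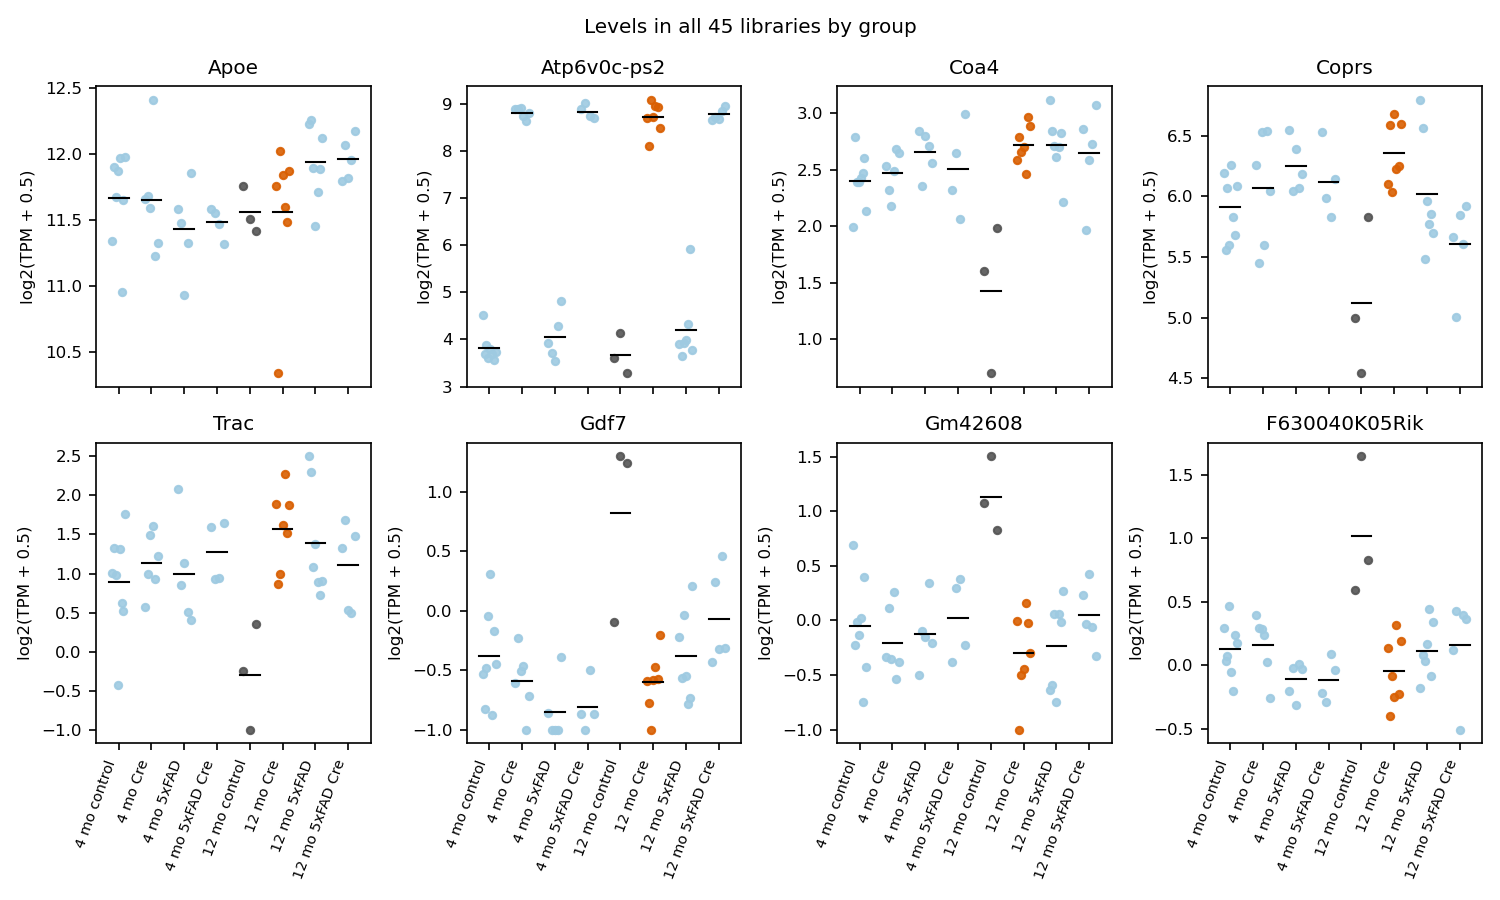
Apoe, Atp6v0c-ps2 and the 6 genes called at 12 months without 5xFAD and not in the other 3 Csf1r-Cre comparisons, on log2(TPM + 0.5) in all 45 libraries by genotype and age (mo, months); bars are group means, grey points the 12-month controls, orange points the 12-month Csf1r-Cre samples and blue points the other groups. Atp6v0c-ps2 is high in every Csf1r-Cre group, whereas for Coa4, Trac, Gm42608 and F630040K05Rik the 3 grey points stand off from nearly all others.

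The difference of the Csf1r-Cre effect between 12 and 4 months passed for 0 genes in limma, with 760 of 18659 at an unadjusted p below 0.05. The difference between the effects without and with 5xFAD at 12 months also passed for 0 genes, with 2156 of 18659 at an unadjusted p below 0.05. For Coa4 the first difference was 1.22 (adjusted p = 0.639) and the second 1.36 (adjusted p = 0.134). For Coprs, Gdf7 and Gm42608 the second difference was 1.64, -1.73 and -1.71, each with an adjusted p of 0.0985. The 6 calls are therefore not shown to be particular to 12 months or to mice without amyloid.

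All 6 calls ended in a limma fit of only the 10 samples (adjusted p of 0.51 or more), and also without control replicate 2. Without that library 8 genes passed, 7 of them shared, and the 7 were the copies and Atp6v0c. The log2 fold changes without it were 0.92 for Coa4 (adjusted p = 0.58), 0.94 for Coprs (adjusted p = 1), 1.52 for Trac (adjusted p = 1), -1.18 for Gdf7 (adjusted p = 0.378), -1.25 for Gm42608 (adjusted p = 0.349) and -0.75 for F630040K05Rik (adjusted p = 1). Without control replicate 1, 28 genes passed, and Coprs (adjusted p = 0.106) and Trac (adjusted p = 0.0963) did not. Without control replicate 3, which had the highest choroid plexus markers and low striatal markers, 114 genes passed, 73 higher and 41 lower.

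Among microglial genes no member of either marker list passed. Homeostatic microglia markers were present in both groups, summing to 5174 to 8502 TPM in controls and to 6092 to 9024 TPM with Csf1r-Cre. The highest sum, 9024 TPM, came from Csf1r-Cre replicate 2, where Csf1r (3.96 TPM) and Cx3cr1 (2.57 TPM) were lowest. The sum thus does not follow these 2 members and is not a measure of microglial content. Of the 18 markers tested, 16 lay below 0, with a median log2 fold change of -0.25 against -0.14 for all genes. With median-of-ratios scaling that median was -0.036. P2ry12, a purinergic receptor of resting microglia, was at 46.6, 35.1 and 24.4 TPM in controls and had a median of 24.8 TPM with Csf1r-Cre (adjusted p = 0.493). Cx3cr1, the fractalkine receptor, was at 23.3, 25.7 and 14.5 TPM and had a median of 16.6 TPM, with the lowest value, 2.57 TPM, in Csf1r-Cre replicate 2 (adjusted p = 0.502).

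The plaque-associated microglia list also showed no call, with 18 of 31 members above 0 and a median log2 fold change of 0.093. Cd63, a tetraspanin of late endosomes, was at 187, 88.7 and 235 TPM in controls and at 182 to 381 TPM with Csf1r-Cre (log2 fold change 0.71, adjusted p = 0.486). Cd52, a surface glycoprotein of leukocytes, was listed at 0 in control replicate 2 and at 17.1 and 14.6 TPM in the other controls, against 9.71 to 20.2 TPM. Its log2 fold change of 1.39 turned to -0.28 without control replicate 2. Several immune genes shared this pattern of a missing or low value in that library, among them Psmb9 of the immunoproteasome at 0.441 TPM against 6.07 and 5.92 TPM in the other controls, H2-Eb1 and H2-DMb1 of class II antigen presentation at 0 TPM, and the complement genes C2 and C3 at 0 TPM.

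Antigen presentation, interferon, complement and cytokine genes gave no call. In class I presentation 6 of 14 members lay above 0, and in class II 5 of 6 did, with a median of 0.77 that was -0.016 without the 2 libraries that stand apart. The interferon response list had 12 of 27 members above 0 and a median of -0.028, and the complement list 5 of 11 and a median of -0.012. Bst2, the interferon-induced tetherin, was at 19.9, 4.05 and 43.9 TPM in controls and ranged from 19.2 to 109 TPM with Csf1r-Cre (adjusted p = 0.493). Inflammatory cytokines had 8 of 10 members above 0 and a median of 0.21, with Ccl12, a monocyte chemokine, at 1.37, 0 and 2.81 TPM in controls and 1.22 to 5.89 TPM with Csf1r-Cre (adjusted p = 0.493). The values of individual members overlapped between the groups in each named case.

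Markers of other immune cells were low. Border macrophage markers summed to 10.9 to 16.2 TPM in controls and 9.17 to 23.9 TPM with Csf1r-Cre. In that list Pf4, platelet factor 4, was at 1.36, 1.62 and 0.832 TPM in controls and had a median of 3.76 TPM with Csf1r-Cre (adjusted p = 0.493), and the scavenger receptor Cd163 was at 1.30, 2.64 and 0.564 TPM with a median of 0.713 TPM (adjusted p = 0.494). The 12 monocyte and neutrophil markers, of which 9 were tested, summed to at most 14.3 TPM in controls and 19.8 TPM with Csf1r-Cre. The neutrophil gene Ngp was listed at 0 in 4 of 7 Csf1r-Cre libraries and in 1 of 3 controls. B cell markers summed to 23.4 to 95.6 TPM and 11.2 to 49.9 TPM. Ighm, the immunoglobulin mu chain, was at 19.9, 25.1 and 37.2 TPM in controls and at 8.84 to 26.8 TPM with Csf1r-Cre (log2 fold change -0.94, adjusted p = 0.469).

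Of the lipoprotein and lipid transport genes, 9 of 30 lay above 0, none past the threshold, with a median log2 fold change of -0.20. Among all genes 37.9% lay above 0, with a median of -0.14. Without the 2 libraries that stand apart, 24 of 30 lay above 0, with a median of 0.13 against 0.064 for all genes. With median-of-ratios scaling 16 of 30 did, with a median of 0.043 against 0.042 for all genes. Fabp5, a cytosolic fatty acid-binding protein, came nearest. It was at 68.1, 53.4 and 61.6 TPM in controls and at 74.2, 109, 90.3, 91.6, 79.9, 78.7 and 99.1 TPM with Csf1r-Cre, so the groups did not overlap, but its log2 fold change of 0.54 ± 0.14 (SE) did not pass (adjusted p = 0.165). Fabp7, the brain-type family member of astrocytes and progenitors, was at 28.3, 26.2 and 75.6 TPM in controls and at 63.2 to 132 TPM with Csf1r-Cre (log2 fold change 1.29, adjusted p = 0.28; 0.0345 without control replicate 3). Scarb1, the receptor for high-density lipoprotein, had a median of 24.4 TPM with Csf1r-Cre against 37.6, 43.1 and 25.5 TPM in controls (adjusted p = 0.493).

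Cholesterol synthesis genes lay above 0 in 6 of 21 cases with a median of -0.30, which was 0.12 without the 2 libraries that stand apart. Idi1, an isomerase of the pathway, was at 24.3, 17.3 and 25.6 TPM in controls and had a median of 32.3 TPM with Csf1r-Cre (log2 fold change 0.45, adjusted p = 0.438). The lysosome and phagocytosis list held the called Atp6v0c, and its 25 other members tested gave no call. There Mertk, a receptor for dying cells, was at 3.82, 7.24 and 5.48 TPM in controls and had a median of 3.40 TPM (adjusted p = 0.501). Grn, progranulin, stood at 92.3 to 105 TPM in controls and at 77.1 to 111 TPM in 6 Csf1r-Cre libraries, with 23.9 TPM in replicate 2 (adjusted p = 0.512).

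Of the microglial Alzheimer risk genes, 4 of 20 lay above 0, with a median log2 fold change of -0.30. Inpp5d, the phosphatase SHIP1, was at 4.70, 7.81 and 3.20 TPM in controls and at 0.682 to 5.02 TPM with Csf1r-Cre (adjusted p = 0.493), and Picalm, a clathrin adaptor, had its lowest value, 5.10 TPM, in Csf1r-Cre replicate 2 against a group median of 46.7 TPM. None of the 20 passed.

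**Figure D3:**
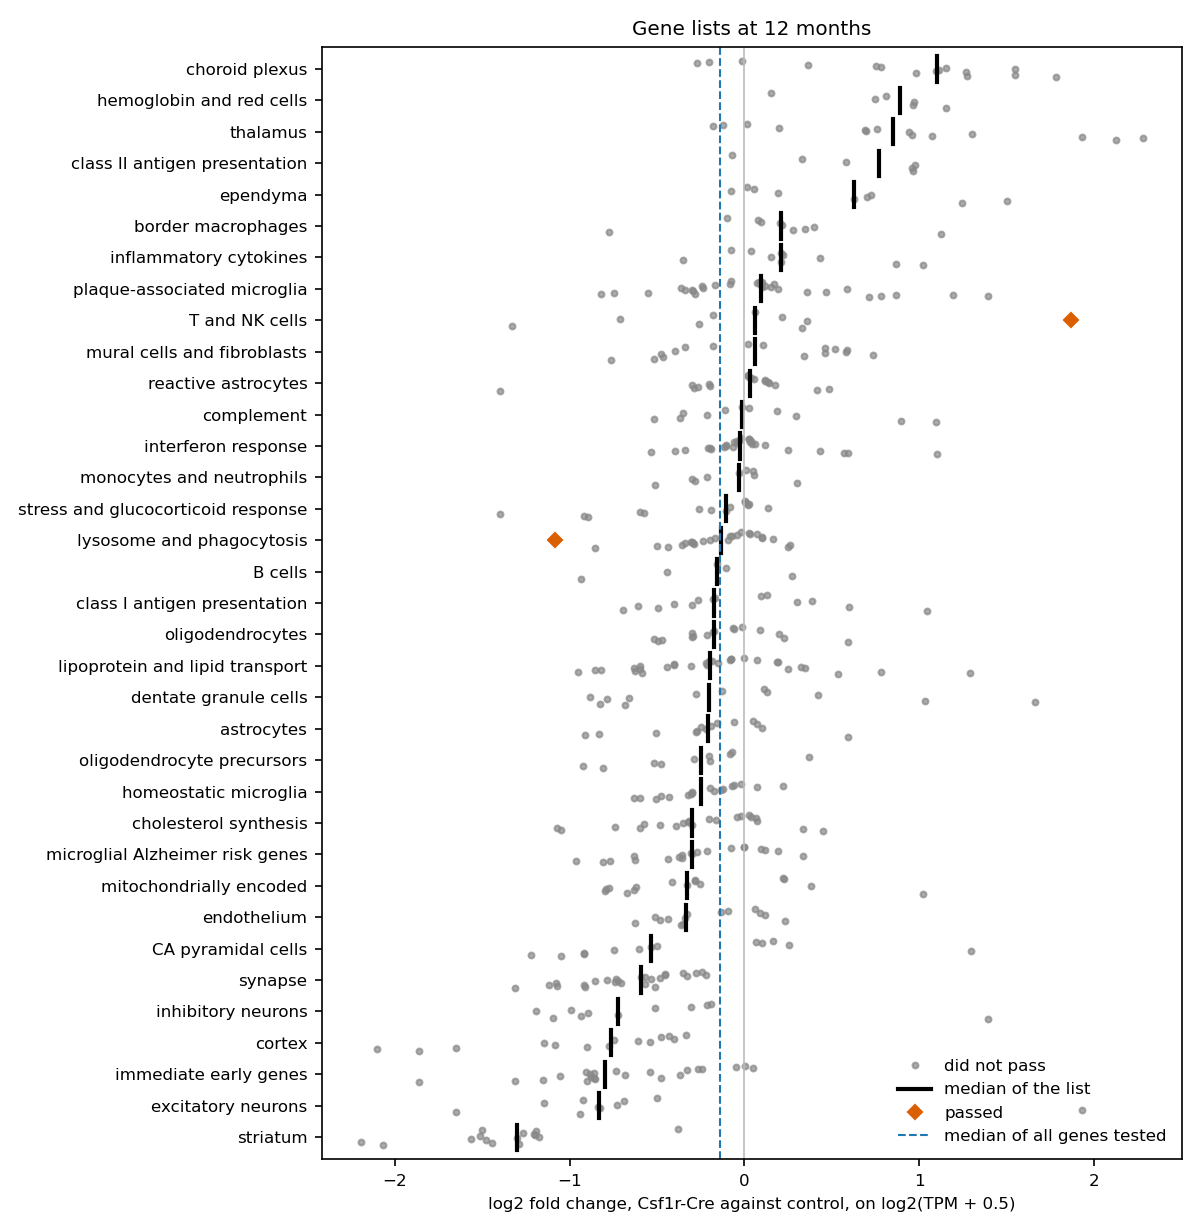
Log2 fold change (Csf1r-Cre against control, on log2(TPM + 0.5)) of each tested member of 35 gene lists, ordered by the list median (black bar); grey circles did not pass, orange diamonds passed, and the dashed line is the median of all genes. Trac and Atp6v0c are the only diamonds, and the striatum list has the lowest median (-1.30) and the choroid plexus list the highest (1.10).

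Glial lists showed no call either. Astrocyte markers summed to 3514 to 4577 TPM in controls and to 2789 to 4869 TPM in 6 Csf1r-Cre libraries, with 1559 TPM in replicate 2, and 4 of 14 lay above 0, which became 12 of 14 without the 2 libraries that stand apart and 9 of 14 with median-of-ratios scaling. Slc1a3, the glutamate transporter GLAST, was at 346, 441 and 254 TPM in controls and had a median of 235 TPM (adjusted p = 0.502), while Gjb6, the gap junction protein connexin 30, had a log2 fold change of 0.59 (adjusted p = 0.499). Reactive astrocyte genes lay above 0 in 12 of 18 cases with a median of 0.032. Lcn2, lipocalin 2, was at 0.418, 0.966 and 5.13 TPM in controls and at a median of 0.128 TPM with Csf1r-Cre (log2 fold change -1.40, adjusted p = 0.493). Oligodendrocyte genes gave 4 of 16 above 0 and their precursors 1 of 10, which became 11 of 16 and 7 of 10 without the 2 libraries.

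Excitatory and inhibitory neuron lists had medians of -0.83 and -0.72, and no member passed. Synapse genes lay below 0 in 25 of 25 cases with a median of -0.59, but 16 of the 25 lay above 0 without the 2 libraries that stand apart. Homer1, a scaffold of the postsynaptic density, was at 103, 131 and 43.4 TPM in controls and at 6.32 to 64.1 TPM with Csf1r-Cre (log2 fold change -1.31, adjusted p = 0.425). Nrgn, neurogranin, was at 1982, 3521 and 1949 TPM in controls and had a median of 1207 TPM (adjusted p = 0.425). Immediate early genes lay above 0 in 2 of 22 cases with a median of -0.80, which was -0.15 without the 2 libraries. Nr4a2, a nuclear receptor of the deep cortex that activity also induces, was at 8.00, 63.6 and 11.1 TPM in controls and at 1.26 to 10.8 TPM with Csf1r-Cre (log2 fold change -1.86, adjusted p = 0.404).

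Excitatory neuron markers lay above 0 in 1 of 10 cases, that of Slc17a6, a vesicular glutamate transporter abundant in thalamus, at 2.498, 21.5 and 16.4 TPM in controls and 1.71 to 121 TPM with Csf1r-Cre (adjusted p = 0.493). Inhibitory neuron markers lay above 0 in 1 of 11 cases. That gene was Pvalb, parvalbumin, at 34.9, 67.8 and 94.3 TPM in controls and at 146, 182, 151, 171, 92.1, 121 and 353 TPM with Csf1r-Cre (log2 fold change 1.39, adjusted p = 0.21; 0.0196 with array weights). Only Csf1r-Cre replicate 5 lay below the highest control. Egr3, an activity-induced transcription factor, and Pou3f1, a CA1 transcription factor, did not overlap between the groups. Egr3 was at 89.8, 120 and 80.5 TPM in controls and at most 78.8 TPM with Csf1r-Cre (adjusted p = 0.487), and Pou3f1 was at 37.9, 45.2 and 29.6 TPM and at most 24.5 TPM (adjusted p = 0.466). Of the hippocampal cell classes, CA pyramidal markers had a median of -0.54 and dentate granule markers -0.20, with Wfs1 of CA1 at 54.6 to 85.6 TPM in controls and 4.90 to 68.3 TPM with Csf1r-Cre.

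Markers of neighbouring brain regions moved between libraries by more than those of the glial lists. The striatum list lay below 0 in 15 of 15 cases with a median of -1.30, and its Pde10a, a phosphodiesterase of striatal neurons, was at 176, 386 and 8.09 TPM in controls and at 98.6, 1.65, 15.2, 88.9, 9.20, 4.12 and 93.2 TPM with Csf1r-Cre. The high and low libraries thus occurred in both groups. Thalamus markers lay above 0 in 12 of 14 cases, summing to 92.9 to 251 TPM in controls and to 274 to 1125 TPM in 6 Csf1r-Cre libraries, with 40.8 TPM in replicate 2. Tcf7l2, a transcription factor of thalamic neurons, was at 2.01, 3.15 and 4.06 TPM in controls and above 9 TPM in every Csf1r-Cre library but replicate 2 (log2 fold change 2.28, adjusted p = 0.486). Without the 2 libraries that stand apart the striatum median was -0.19. Cortex markers lay below 0 in 14 of 14 cases, but 7 of 14 lay above 0 without those 2 libraries, with a median of -0.022 in place of -0.76. Their sum was highest at 839 TPM in control replicate 2, where Ctgf of the deepest cortical layer reached 38.2 TPM.

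Choroid plexus markers summed to 400, 164 and 8776 TPM in controls and to 2779, 54.8, 996, 567, 399, 6298 and 5466 TPM with Csf1r-Cre. Otx2, their transcription factor, was at 1.56, 0 and 29.6 TPM in controls and at 0.399 to 39.99 TPM with Csf1r-Cre (adjusted p = 0.519). Among ependymal genes, Tmem212 was at 14.8, 0 and 38.1 TPM in controls and had a log2 fold change of 1.51 that was -0.36 without control replicate 2. Endothelial markers were more even, at 511 to 578 TPM in controls and 355 to 611 TPM with Csf1r-Cre. Mitochondrially encoded genes lay above 0 in 4 of 15 cases, with mt-Co3 at 230 to 473 TPM in controls and 354 to 1965 TPM with Csf1r-Cre (adjusted p = 0.444) and mt-Nd4 at 6144 to 6627 TPM and 1324 to 6672 TPM (adjusted p = 0.478). Stress and glucocorticoid response genes gave 6 of 15 above 0, with Fkbp5, an inhibitor of the glucocorticoid receptor, at 22.6 to 41.1 TPM and 2.83 to 34.2 TPM (adjusted p = 0.493). The summed level of every one of the 36 lists, the sex-linked list included, overlapped between the groups.

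**Figure D4:**
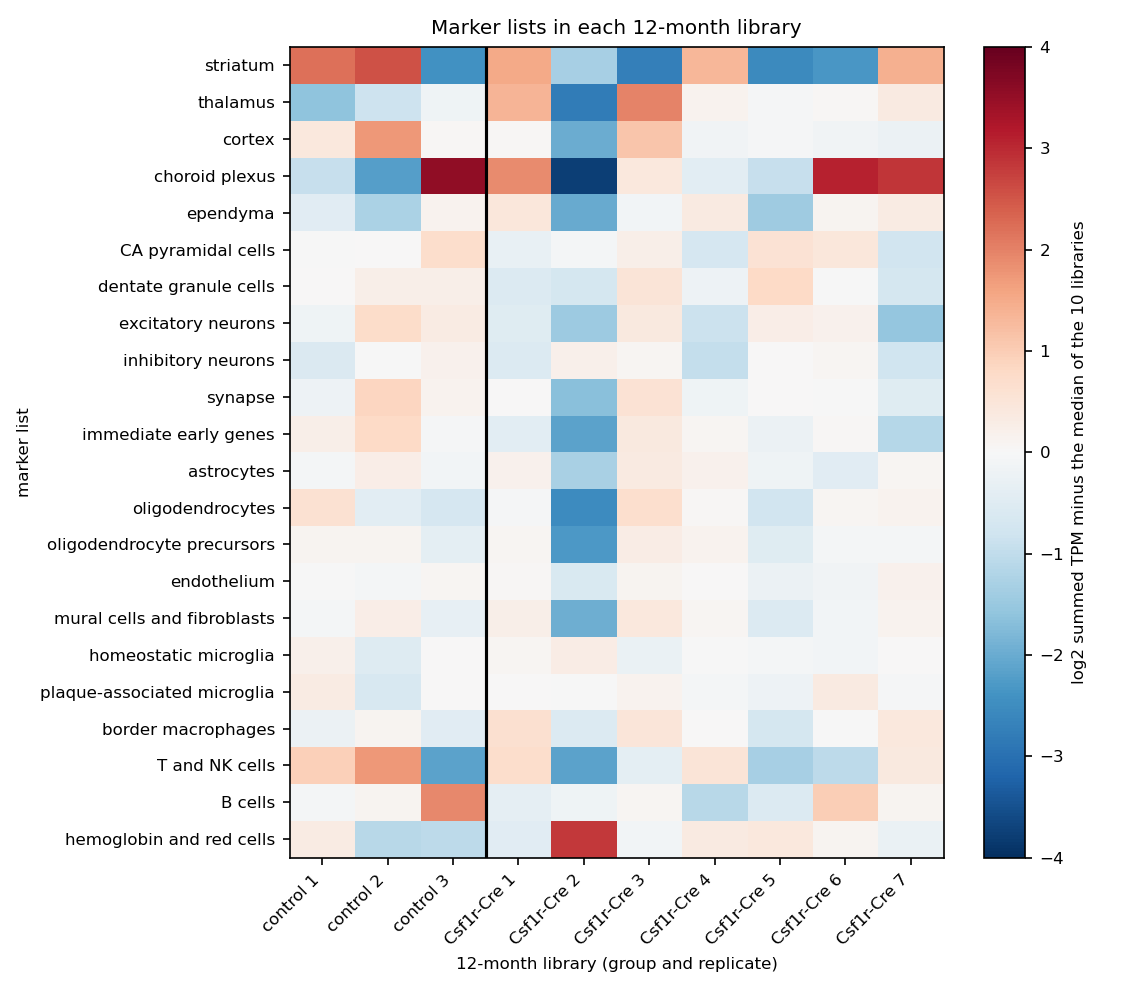
Summed TPM of 22 marker lists in each of the 10 libraries, as log2 minus the median of the 10 (red higher, blue lower); the black line divides the 3 controls from the 7 Csf1r-Cre libraries. Striatum and choroid plexus markers differ widely between libraries within both groups. Csf1r-Cre replicate 2 is the lowest in the astrocyte and oligodendrocyte lists and the highest in hemoglobin, inhibitory neuron and homeostatic microglia lists. Single microglial genes can go the other way, with Csf1r lowest in that library at 3.96 TPM.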

How the data were processed

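The authors deposited 1 table of TPM values for 54532 genes, with coordinates on mm10. STAR, featureCounts, edgeR and limma are listed, per the submitters' processing notes, without versions; strand and the treatment of multiply mapped reads are not stated there. Per the labels' protocols, a spin column kit gave the RNA, which was read as paired ends. Samples were grouped by title. All 8 groups entered 1 limma 3.58.1 model (R 4.3.3, trended eBayes, two-sided) on log2(TPM + 0.5), so all 45 samples share the estimate of the spread; genes had to reach 0.5 TPM in at least 3 samples. TPM came out as whole reads, within 0.02, for 33023 of 33023 genes above 0, given 1 length per gene. This length equalled the listed one for 15330 genes and was otherwise searched for until the reads were whole. The read numbers are therefore estimates, and no test used them. On this basis 1 read on 1000 bases was worth 0.0577 to 0.0837 TPM. No 2 of the 10 libraries correlated above 0.984, and none was counted as a duplicate. Copies were searched with blastn 2.17.0.

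The groups, members and lists were chosen with earlier results of these data known. The naming rule took Apoe, up to 12 called genes in each direction with a mean of at least 1 TPM and no predicted model, and per list the 3 smallest p and the called members. Some genes it takes are not reported here. Gm14292, Gm9825, Gm42608, F630040K05Rik, the sources Rps2, Rnps1, Wtap and Hmga1, and Cd3d and Trbc2 were named after their values were seen. In simulated data for this comparison (18659 genes, 200 changed) 40% of genes changed by 1 log2 unit and 85% of those changed by 2 were called, and 5 of 130 calls were false. These shares hold for the simulated data and are no estimate for the 13 calls. Alternatives covered the pseudocount, filter, scaling, weights, replicate block, sex, and samples left out. No replicate pairing was used, since same-numbered samples did not deviate together.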

Additional observations from a re-analysis of the deposited data

Results flagged for a closer look

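In the 7 Csf1r-Cre samples, the highest or lowest library was checked for a gap to its neighbour larger than 0.568 of the group's range, over 121 values (86 genes and 35 list sums). Chance flags about 1 in 20 values that are independent and normally distributed. These are TPM values that partly depend on each other, so that share is no measure for them. In all, 18 were flagged, 10 of them from replicate 2. In that library Rps2-ps10 (930.8 TPM), Rps2 (2582 TPM), Hba-a1 (776.2 TPM), Hbb-bs (1830 TPM) and the hemoglobin list (3000 summed TPM) stood high. Scarb1 (8.848 TPM), Grn (23.86 TPM), Slc2a1 (28.38 TPM), the lysosome and phagocytosis list (1528 summed TPM) and the stress and glucocorticoid response list (1570 summed TPM) stood low there. Replicate 6 stood high in Bst2 (109 TPM), Ccl12 (5.887 TPM) and the B cell list (49.94 summed TPM). Replicate 3 stood high in Tbr1 (59.34 TPM), Ctgf (17.35 TPM) and the cortex list (553.1 summed TPM). Lcn2 was high in replicate 1 (2.093 TPM) and Pvalb in replicate 7 (353.3 TPM).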

How the results depend on the processing

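Against 13 genes passing, 22 passed with a pseudocount of 0.1, 20 without a filter, 4 with only the 10 samples, 37 with array weights and 8 without the 2 libraries that stand apart. Chosen after seeing the data, terms for striatum, thalamus and choroid plexus markers gave 2695 (638 higher, 2057 lower), but 9 when the 2 libraries that stand apart were also left out, 7 of them shared; leaving out the 5 libraries with over 3000 TPM of striatum markers, which keeps 1 control assumed to vary like the other groups, gave 12, of which 4 were shared. Leaving out 1 sample gave 8 to 114. Atp6v0c-ps2 and Rps2-ps10 passed in all 24 alternatives, Gm14292, Gm9825 and Hmga1b in 23, Rps2-ps13 in 22, Atp6v0c in 21, Coa4 in 19, Coprs in 14 and Trac in 9; Gdf7, Gm42608 and F630040K05Rik passed in 17 of 23. The difference with and without 5xFAD passed for 2 genes with a pseudocount of 1, 1 without a filter and 1 with median-of-ratios scaling, and for 0 to 33 on leaving out 1 sample; that between ages passed for 0 to 4. The log2 difference of Apoe was 0.2688 with median-of-ratios scaling (exact permutation p = 0.1), 0.02138 rescaled without mitochondrial, hemoglobin and Gm23935 rows, 0.173 without the 2 libraries, and -0.07912 to 0.2008 on leaving out 1 sample. The signs of Rps2 (0.02473) and Hmga1 (0.1715) turned with median-of-ratios scaling, and that of Hmga1 with array weights (0.1541). Without the 2 libraries the values were 0.008166 for Wtap, 0.08875 for Hmga1, -0.2522 for Cd52, -0.02076 for H2-DMb1, 0.01011 for Pdgfra, 0.2018 for Cacng4, 0.07014 for Foxp1, -0.1883 for Dynlrb2 and -0.277 for Tmem212. Leaving out 1 sample at a time, the values ran from -0.1937 to 0.139 for Hmga1, -0.2823 to 2.285 for Cd52, -0.06648 to 1.511 for H2-DMb1, -0.06923 to 1.099 for Xaf1, -0.03848 to 0.8623 for Cd14, -0.2683 to 2.741 for Calml4, -0.4366 to 2.51 for Dynlrb2 and -0.3627 to 2.773 for Tmem212. The cause was not tested.

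The replicate number as a block, which the check of pairing did not back (correlations -0.127, -0.386 and -0.229), gave 14 calls, 13 shared, and turned Hmga1 to 0.01254. With 3 controls, a call can rest on 1 library, and genes near 1 TPM rest on few reads.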
